A study of Mus musculus with 23 samples.

Results

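Mitochondrially encoded RNAs were taken as the genes whose symbol starts with mt-, which gave 37 of the 38924 genes in the deposited tables. They comprise 13 messenger RNAs (mt-Nd, mt-Co, mt-Cytb and mt-Atp), 2 ribosomal RNAs (mt-Rnr1 and mt-Rnr2) and 22 transfer RNAs (mt-T). The 15 messengers and ribosomal RNAs had counts in all 23 libraries and passed the filter on low counts in every comparison. The 22 transfer RNAs are 59 to 75 bases long, shorter than the mean fragment of any library (139.62 to 153.5 bases), and the authors' tables give each an effective length of 0 and a count of 0 in all 23 libraries. They were therefore outside what this assay could measure, and a count of 0 here says nothing of their level.

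The libraries are anti-haemagglutinin precipitates of spinal cord from mice of 2 weeks on a mixed B6.CgxB6.129 background, all carrying the RiboTag allele (genotype Rpl+/-), in which Cre recombinase switches on a tagged copy of the cytosolic ribosomal protein Rpl22. Wild-type Cre libraries (5) came from ChAT-Cre mice with Gars+/+, and mutant Cre libraries (6) from ChAT-Cre mice with GarsC201R/+, a missense allele of Gars, the enzyme that charges tRNA with glycine; dominant mutations in this gene cause inherited neuropathy. Negative controls carry the RiboTag allele but no Cre, so no tagged protein is made, and comprise 6 wild-type no-Cre and 6 mutant no-Cre libraries. The Chat promoter is active in cholinergic neurons of several kinds, so the tag is not limited to motor neurons, and fewer cells of a type and less RNA per cell cannot be told apart in such bulk material.

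Mitochondria keep a small circular genome whose 2 strands are each copied into long precursor RNAs. Transfer RNAs lie between most of the other genes, and cutting them out frees the messengers and ribosomal RNAs, a layout called transfer RNA punctuation. The messengers encode core subunits of respiratory complexes I, III, IV and V and are translated inside the organelle by mitochondrial ribosomes, which do not contain Rpl22. All other subunits are encoded in the nucleus and made on cytosolic ribosomes. Gars charges glycine onto transfer RNA both in the cytosol and in mitochondria, where its substrate is mt-Tg.

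The sequences below show the substrate of Gars and the gene ends on which read assignment turns. They were read from GENCODE M21 on GRCm38 by gene identifier, and the lengths of all 37 members match the deposited lengths. mt-Tg spans chrM:9391-9458 on the plus strand, between mt-Co3 and mt-Nd3 with no base to spare on either side. Capitals mark its anticodon, at bases 31 to 33, in a loop of 7 bases closed by a stem of 5 base pairs.
mt-Tg: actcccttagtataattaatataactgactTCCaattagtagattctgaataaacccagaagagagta

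Of the 15 messenger and ribosomal RNA genes, 14 have a transfer RNA as a neighbour and 8 lie between 2 of them. In the annotation a complete stop codon ends 10 of the messengers. For mt-Nd1 and mt-Nd2 its last 2 bases also belong to mt-Ti and mt-Tw. The other 3 messengers end in a lone T, to which the tail added after cutting supplies the missing bases. The last 30 bases of these 3 are shown with that T in capitals, for mt-Co3 (chrM:9361-9390), which abuts mt-Tg, mt-Nd4 (chrM:11515-11544) and mt-Cytb (chrM:15259-15288).
mt-Co3 end: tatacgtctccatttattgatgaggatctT
mt-Nd4 end: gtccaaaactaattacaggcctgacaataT
mt-Cytb end: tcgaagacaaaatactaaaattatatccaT

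Some neighbouring genes share bases, so their counts are not independent. mt-Nd4l and mt-Nd4 share 7 bases and mt-Atp6 and mt-Co3 share 1. mt-Atp8 and mt-Atp6 share 43 bases of the plus strand (chrM:7927-7969) and are carried on 1 messenger, and the shared bases are in capitals.
mt-Atp8 end: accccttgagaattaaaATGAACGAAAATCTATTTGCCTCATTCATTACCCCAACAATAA
mt-Atp6 start: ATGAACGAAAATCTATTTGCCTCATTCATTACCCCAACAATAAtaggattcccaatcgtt

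mt-Nd5 and mt-Nd6 share 14 bases (chrM:13552-13565) from opposite strands, in capitals below. mt-Nd6 is the only messenger on the minus strand. Whether the counting used strand is not given in the sources used here, so reads from antisense RNA over either gene cannot be told apart from its own.
mt-Nd5 end: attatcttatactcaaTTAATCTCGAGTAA
mt-Nd6 end: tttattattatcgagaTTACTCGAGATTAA

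mt-Nd4l has a nuclear twin. The first 294 of its 297 bases are identical to the whole of Gm10222 (chr1:24612407-24612700, minus strand), and its stop codon, in capitals, is what the copy lacks.
mt-Nd4l end: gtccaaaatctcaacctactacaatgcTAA
Gm10222 end: gtccaaaatctcaacctactacaatgc

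The 2 genes held equal expected counts in 23 of 23 libraries (60 to 2965.5, equal within 0.02), so each carries a share of reads that could not be assigned, and the values of mt-Nd4l below are uncertain for that reason. Gm10222 is 1 of 7 copies at least 99% identical to mitochondrial genes within 4663 bases of chromosome 1. The other 6, which match 6 members, are not among the genes of the deposited tables, and 10 further nuclear copies that are (88.5% to 97.6% identical) never held more than 41.6 counts in a library.

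Total expected counts were 9031654 to 19671869 per library. Of these, 3 nuclear gene models treated here as ribosomal RNA-like (Gm26924, Gm15662 and Lars2) took a mean of 70.6% in wild-type Cre, 57.6% in mutant Cre, 26.1% in wild-type no-Cre and 26.3% in mutant no-Cre libraries. Chat, the acetylcholine-synthesising enzyme that marks the tagged cells, stood at 39.1 to 68.5 CPM (counts per 1000000, scaled by TMM, the trimmed mean of M values) in wild-type Cre and 13.9 to 50.9 in mutant Cre libraries, above the 1.06 to 8.22 CPM of all no-Cre libraries. Of 7 motor neuron markers counted, 7 of 7 tested rose with Cre in wild type and 6 of 6 in mutants, beside 20% and 14.1% of all genes tested. Gars rose with Cre by 1.78 ± 0.35 (log2, SE, adjusted p = 0.000664, edgeR) in wild type and 1.87 ± 0.26 (adjusted p = 6.11e-05) in mutants and did not pass between genotypes with Cre (0.26 ± 0.22, adjusted p = 0.532), and Rpl22 passed in none of these comparisons. A point mutation is not visible in such counts, so Gars does not check the genotype labels.

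The first comparison asks what share of the counts mitochondrial RNA took in precipitates with tagged ribosomes and in those without them. Shares and scaled levels are relative to the other RNA of a library. The amount of RNA recovered per precipitate was not among the values used here. A fall with Cre below is therefore a relative fall, and does not show that less mitochondrial RNA came down. Mitochondrial ribosomal RNA made up 48.0% ± 8.83 (SD, n = 6) of all counts in wild-type no-Cre and 54.7% ± 8.69 (n = 6) in mutant no-Cre libraries, against 4.89% ± 0.866 (n = 5) and 4.00% ± 2.12 (n = 6) with Cre. In the no-Cre precipitates 2 mitochondrial genes thus held about as many counts as all others together. The lowest no-Cre library stood at 34.7% and the highest Cre library at 7.34%, so the groups did not overlap.

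The 13 messengers were far rarer. They held 0.0407%, 0.356%, 0.0543%, 0.0988% and 0.0649% of counts in wild-type Cre replicates 1 to 5 and 0.0582% to 0.276% (median 0.134%) in mutant Cre libraries. Without Cre they held 0.455% to 2.19% (median 1.44%) in wild type and 0.255% to 2.22% (median 0.588%) in mutants. Shares of all counts did not overlap between Cre and no-Cre libraries in wild type. In mutants they did, since the highest Cre library (0.276%) stood above the lowest no-Cre library (0.255%).

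Those shares move with the ribosomal RNA in the denominator. Over the counts left after removing the mitochondrial ribosomal RNAs and the 3 ribosomal RNA-like models, messengers made up 0.249% to 0.720% in wild-type Cre (mean 0.429%), 0.182% to 0.593% in mutant Cre (0.389%), 2.83% to 9.55% in wild-type no-Cre (5.35%) and 2.80% to 7.32% in mutant no-Cre libraries (4.88%). On that base Cre and no-Cre libraries did not overlap in either genotype, while the 2 genotypes overlapped with and without Cre.

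**Figure D1:**
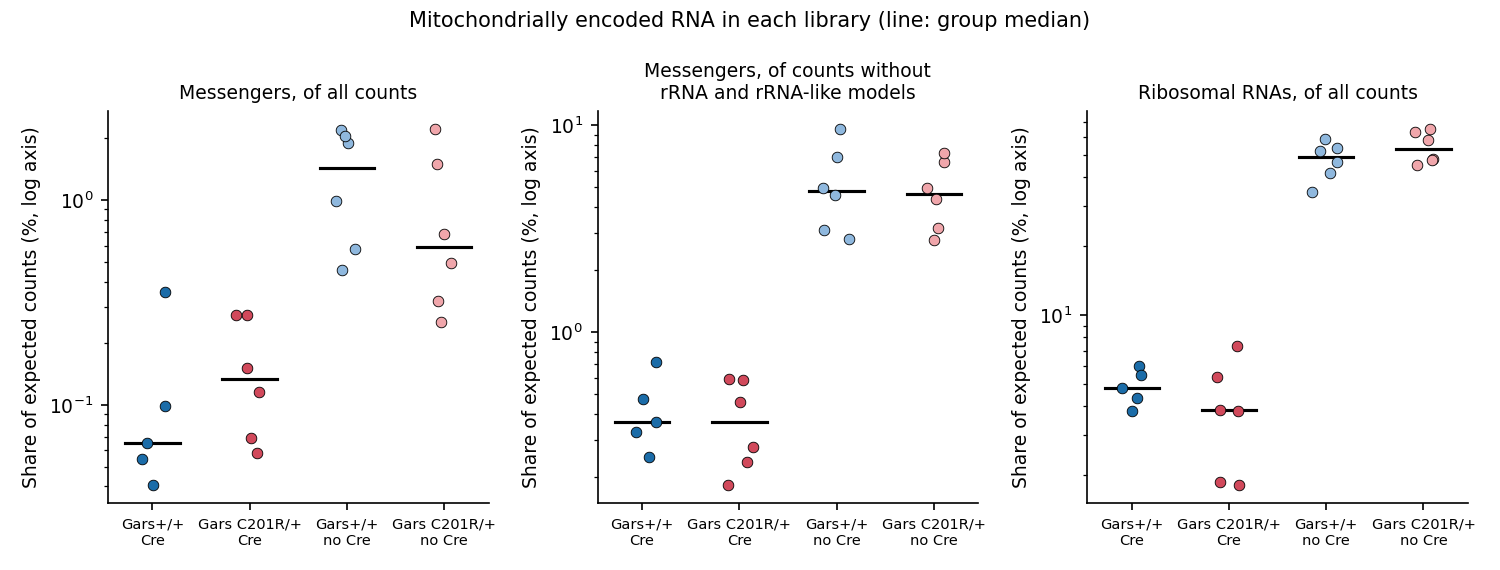
Share of expected counts (%, log axis) held by the 13 mitochondrial messengers, of all counts and of counts without ribosomal RNA and the ribosomal RNA-like models, and by the 2 mitochondrial ribosomal RNAs, with 1 point per library and a line at each group's median. Ribosomal RNA lies at 34.7% or more in every no-Cre library and at 7.34% or less in every Cre library.

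Among single genes, all 15 measurable members fell with Cre in both genotypes, and for all 15 the CPM of Cre and no-Cre libraries did not overlap in either. The share of all genes without overlap was not computed, so how unusual that count is remains unknown. Over all genes tested 46% passed in either direction in wild type and 25.9% were lower with Cre, and in mutants 33.3% passed and 19.2% were lower. The median change of the 13 messengers was -3.22 on the log2 scale in wild type and -3.93 in mutants, beside -0.14 for all genes tested in each. Every tested member was also below 0 in both genotypes under each alternative scaling, filter and tool, including library totals only, under which calls over all genes in mutants went from 1800 higher and 2447 lower to 3248 higher and 275 lower.

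Complex I, which feeds electrons from NADH into the chain, takes 7 of the messengers. mt-Nd5, one of its proton-pumping subunits, stood at 179, 268, 179, 331 and 143 CPM in wild-type Cre replicates 1 to 5 and at 98.8 to 361 CPM (median 201.05) in mutant Cre libraries. Without Cre it stood at 1978 to 24592 CPM (median 3612) in wild type and 2279 to 14415 (median 2863) in mutants. It was 30.0-fold lower with Cre in wild type (log2 change -4.91 ± 0.68, SE, adjusted p = 3.97e-05, edgeR) and 24.7-fold lower in mutants (-4.63 ± 0.57, adjusted p = 2.58e-05). Its highest no-Cre value in each genotype, replicate 1 of wild type and replicate 5 of mutants, was over 3 times the next. Without these libraries the fall was 15.7-fold (-3.98) in wild type and 13.4-fold (-3.74) in mutants.

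mt-Nd6, the subunit encoded on the minus strand, had the largest fall of the messengers in both genotypes with all libraries. It stood at 46.4, 42.6, 26.6, 43.5 and 44.1 CPM in wild-type Cre replicates 1 to 5, and at 481 to 5150 CPM (median 599) in wild-type no-Cre libraries. In mutants it stood at 11.2 to 56.5 CPM (median 24.6) with Cre and 330 to 2773 CPM (median 794) without. The log2 changes were -4.98 ± 0.67 (adjusted p = 3.03e-05, edgeR) in wild type and -5.33 ± 0.58 (adjusted p = 1.46e-05) in mutants. The same 2 no-Cre libraries weighed here too, since the changes were -3.89 without replicate 1 in wild type, less than that of mt-Nd5, and -4.61 without replicate 5 in mutants.

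The other complex I messengers fell by less in wild type, with log2 changes of -3.99 (mt-Nd4), -3.85 (mt-Nd4l), -3.44 (mt-Nd1), -3.13 (mt-Nd2) and -2.95 (mt-Nd3). In mutants mt-Nd3 and mt-Nd2 came next to mt-Nd6, at -4.81 ± 0.54 and -4.73 ± 0.64, while mt-Nd1 changed by -3.22 ± 0.38, the smallest change of the 13 there. Without wild-type no-Cre replicate 1, mt-Nd4l was at -3.20 and mt-Nd2 at -2.54 in wild type. Without mutant no-Cre replicate 4, mt-Nd3 was at -4.20 and mt-Nd2 at -3.64 in mutants. Adjusted p-values of the 7 lay between 3.72e-06 and 0.000714 in wild type and between 9.87e-06 and 5.76e-05 in mutants. The 2 genotypes' values come from separate fits, and whether the Cre effect differed by genotype is tested further on.

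Complex IV, which passes electrons to oxygen, has 3 mitochondrial messengers. Its catalytic subunit mt-Co1 stood at 75.0, 347, 70.1, 111 and 86.9 CPM in wild-type Cre replicates 1 to 5, so replicate 2 was over 3 times the next, and at 45.4 to 215 CPM (median 145) in mutant Cre libraries. Without Cre it stood at 964 to 3192 CPM (median 1241) in wild type and 744 to 2246 CPM (median 1220) in mutants. The log2 changes were -3.55 ± 0.50 (adjusted p = 4.58e-05, edgeR) and -3.45 ± 0.45 (adjusted p = 4.25e-05), and the first was -4.17 without wild-type Cre replicate 2. mt-Co2 and mt-Co3, its other 2 core subunits, changed by -2.91 and -3.15 in wild type and by -3.40 and -3.59 in mutants.

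mt-Cytb, the only mitochondrial subunit of complex III, stood at 29.5 to 145 CPM in all Cre libraries of wild type and 27.9 to 107 CPM in those of mutants, against 354 to 1180 CPM over all 12 no-Cre libraries. It changed by -3.18 ± 0.43 (adjusted p = 3.07e-05, edgeR) and -3.51 ± 0.41 (adjusted p = 2.02e-05). The ATP synthase messenger carries mt-Atp8 and mt-Atp6, which changed by -3.03 and -3.22 in wild type and by -4.45 and -3.61 in mutants, where mt-Atp8 was at -3.52 without no-Cre replicate 4. mt-Atp8 was among the lowest in CPM, at 1.90 to 6.35 in wild-type Cre and 1.21 to 5.28 in mutant Cre libraries, or 23 to 168 counts.

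The ribosomal RNAs, which build the small (mt-Rnr1) and large (mt-Rnr2) mitochondrial ribosomal subunits, fell as well. mt-Rnr2 stood at 78926, 18009, 43090, 44859 and 40997 CPM in wild-type Cre replicates 1 to 5, 6909 to 23696 CPM (median 15489) in mutant Cre, 111668 to 909611 CPM in wild-type no-Cre and 206128 to 3184330 CPM in mutant no-Cre libraries. The scaled values run higher than plain CPM can where the TMM factor shrinks a library's effective size, down to 0.125 of its total in mutant no-Cre replicate 5, which holds the highest mt-Rnr2 value. In TPM, with no such factor, mutant no-Cre libraries spanned only 281919 to 367954 for mt-Rnr2. mt-Rnr2 changed by -3.45 ± 0.83 (adjusted p = 0.00302, edgeR) in wild type and -6.28 ± 1.05 (adjusted p = 0.000317) in mutants, and mt-Rnr1 by -4.70 ± 0.82 (adjusted p = 0.000266) and -6.75 ± 1.02 (adjusted p = 0.000135). With library totals only, the changes in mutants were -3.66 for mt-Rnr2 and -4.07 for mt-Rnr1, with all genes at a median of 1.13. Without mutant no-Cre replicate 5 they were -5.40 and -5.76.

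**Figure D2:**
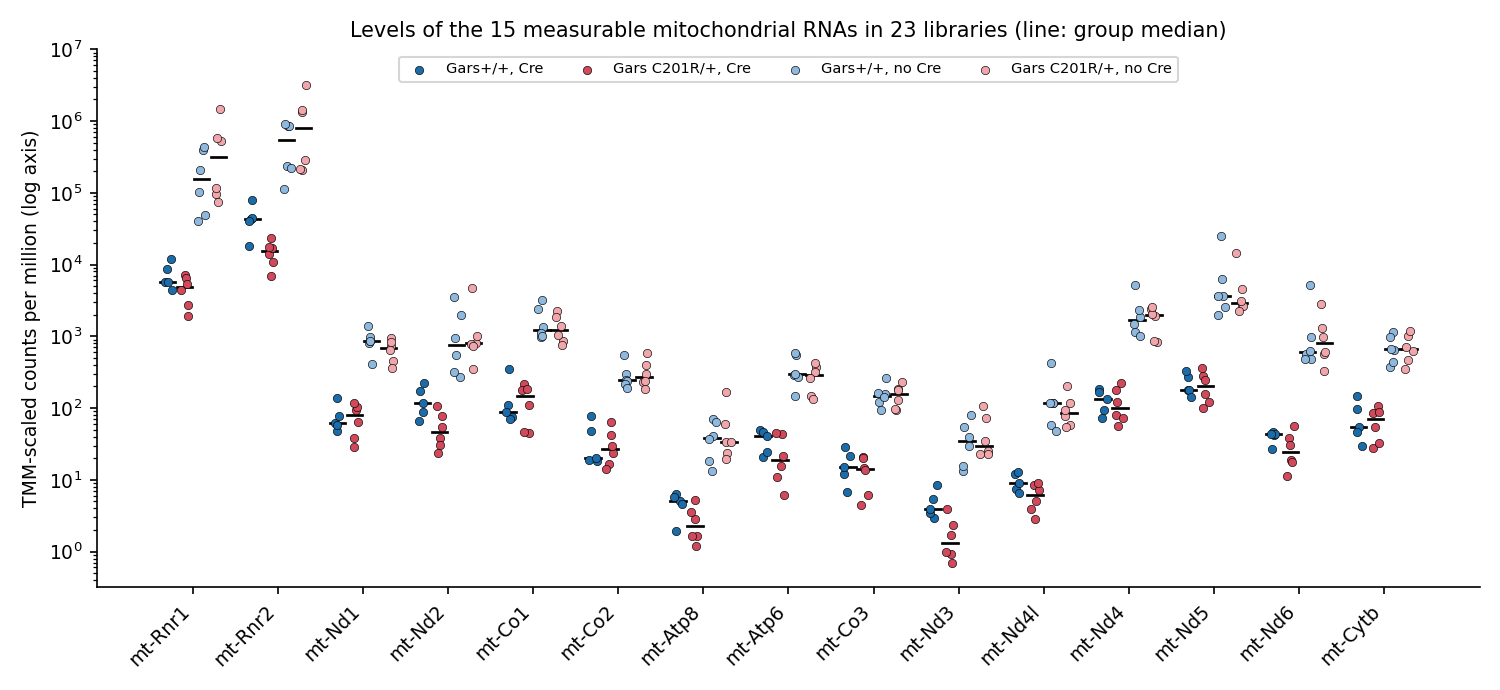
TMM-scaled CPM (log axis) of the 2 ribosomal and 13 messenger RNAs in genome order, with 1 point per library and a line at each group's median. For every gene all Cre libraries lie below all no-Cre libraries of the same genotype.

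Markers of cells other than cholinergic neurons were mostly lower with Cre in wild type, while in mutants only part of the oligodendrocyte and astrocyte lists stood out. The summed level of 8 oligodendrocyte markers was 550 to 3053 CPM in wild-type Cre and 808 to 7122 CPM in mutant Cre libraries, against 7246 to 16872 CPM over the no-Cre libraries, and 8 of 8 were lower with Cre in wild type and 3 of 8 in mutants. The 6 astrocyte markers summed to 44.5 to 253 CPM and 61.5 to 435 CPM with Cre and to 534 to 1110 CPM without, with 5 of 6 and 3 of 6 lower. Of the 6 microglial markers 4 of 4 tested were lower in wild type and 1 of 6 in mutants, of 5 endothelial markers 4 and 0, and of 5 erythroid markers 5 and 0. Over all genes tested 25.9% were lower in wild type and 19.2% in mutants, so the last 3 lists did not exceed that share in mutants. Median changes in mutants were -1.43 (oligodendrocyte), -1.81 (astrocyte), -0.31 (microglia), -0.65 (endothelial) and -1.06 (erythroid), beside -0.14 for all genes. No listed marker found in the tables was at 0 in all libraries. The part of other cells in the fall of the mitochondrial RNAs was not tested.

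Title numbers, whose meaning the labels do not give, were treated as a possible batch. Within number 20302 all 15 members were lower with Cre in wild type (2 libraries against 1, difference of mean log2(CPM + 1) -7.26 to -3.81), and within number 20401 likewise (2 against 3, -3.61 to -1.43). In mutants only number 18405 held both kinds (2 against 1), and all 15 were lower there (-6.01 to -3.83).

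Messengers of the same complexes that are encoded in the nucleus went the other way. Over all genes tested 20% rose with Cre in wild type and 14.1% in mutants. Of 70 nuclear subunits of complexes I, III, IV and V tested, 69 rose with Cre in wild type and 0 fell, with a median of 1.76 (range 0.02 to 2.79), beside 0 higher and 13 lower among the mitochondrial messengers. In mutants 48 of 70 rose and 0 fell (median 0.96, range -0.20 to 1.97), again beside 13 of 13 mitochondrial messengers lower. With library totals only 25 and 68 of the 70 rose and 0 fell. The largest nuclear value in wild type was that of Ndufa4 (2.79 ± 0.32, adjusted p = 9.24e-06, edgeR).

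In complex I 36 of 36 nuclear subunits rose in wild type (median 1.80) and 20 of 36 in mutants (0.84), beside medians of -3.85 and -4.63 for its 7 mitochondrial messengers. In complex IV 10 of 11 rose in both genotypes (1.89 and 1.18), beside -3.15 and -3.45. In complex III 9 of 9 and 6 of 9 rose (1.71 and 0.83), with Cyc1, its cytochrome c1, at 1.41 ± 0.19 in mutants (adjusted p = 6.28e-05), and in complex V 14 of 14 and 12 of 14 rose (1.79 and 1.03), with Atp5d at 2.19 ± 0.22 in wild type (adjusted p = 2.44e-06).

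**Figure D3:**
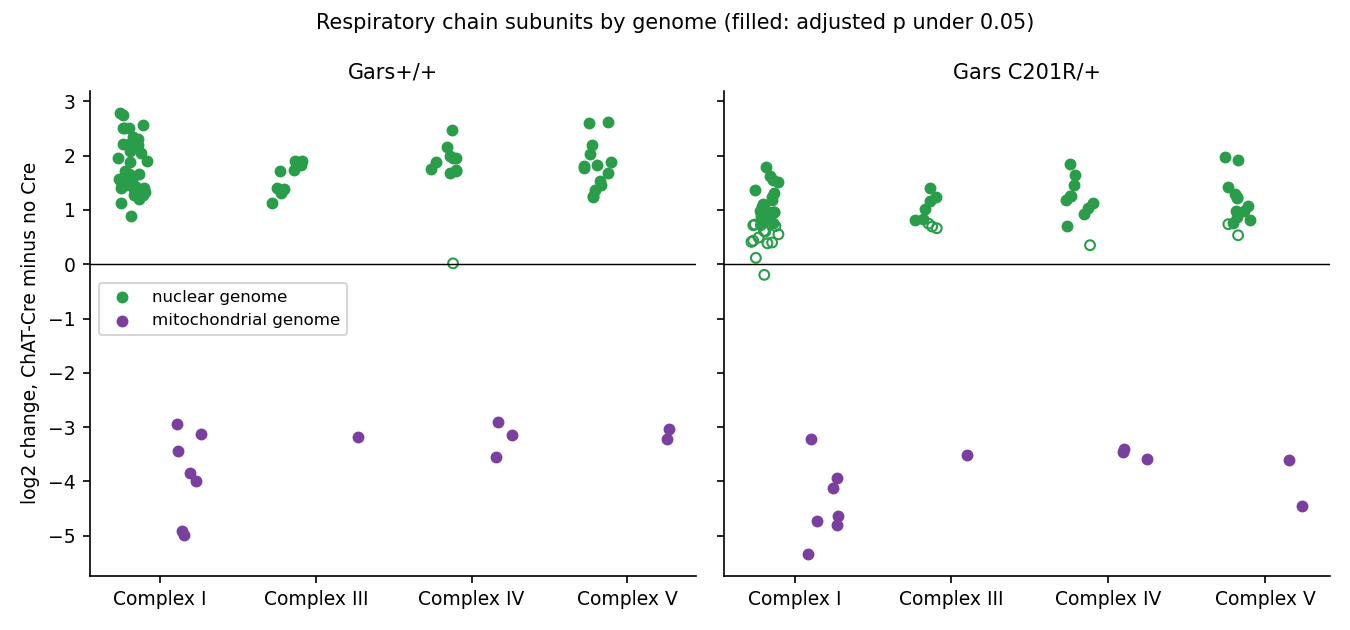
Log2 change from no Cre to ChAT-Cre for each subunit of complexes I, III, IV and V, by the genome that encodes it, in wild type (left) and mutants (right), with filled points for an adjusted p under 0.05. Nuclear subunits lie between -0.20 and 2.79 and mitochondrial messengers between -5.33 and -2.91.

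The pair mt-Co1 and Cox4i1, subunits of complex IV from the 2 genomes, gives this within each library without scaling. Like the other pairs tested below, it was chosen with earlier results of these data known. mt-Co1 held 0.253 to 2.25 counts per count of Cox4i1 in wild-type Cre and 0.286 to 1.37 in mutant Cre libraries, against 14.1 to 64.0 in wild-type no-Cre and 7.43 to 46.0 in mutant no-Cre libraries. The log2 ratio was lower with Cre by -5.82 in wild type (exact two-sided permutation test, p = 0.00433, adjusted p = 0.0231 over 16 ratio tests) and by -4.60 in mutants (p = 0.00216, adjusted p = 0.0231). Those raw p-values are the smallest that 5 against 6 and 6 against 6 libraries can give. Without title number 18405 the mutant value was -3.70 (exact permutation p = 0.0159, adjusted p = 0.0847, fewer samples). That raw p is likewise the smallest that the libraries left can give. Within title numbers the difference was -6.81 and -5.68 in wild type (20302 and 20401) and -7.30 in mutants (18405).

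Nuclear genes that serve mitochondrial gene expression were counted list by list, to be read against the 20% and 14.1% of all genes that rose with Cre. Of 77 mitochondrial ribosomal proteins tested, 43 rose with Cre and 1 fell in wild type (median 1.16), and 23 rose and 1 fell in mutants (0.72). Mrpl12 rose by 2.58 ± 0.34 in wild type (adjusted p = 2.72e-05), and the 1 that fell in mutants was Mrpl48 (-2.56 ± 0.44, adjusted p = 0.000401). With library totals only 3 of 77 rose in wild type and 52 of 77 in mutants.

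Of 27 genes of mitochondrial RNA processing, modification and decay, 7 rose and 0 fell in wild type and 3 rose and 1 fell in mutants, shares near those of all genes. Grsf1, an RNA-binding protein of mitochondrial RNA granules, rose in both (1.75 ± 0.25, adjusted p = 4.44e-05, and 1.38 ± 0.25, adjusted p = 0.000603), and Slirp, which stabilises mitochondrial messengers, rose in wild type (2.15 ± 0.57, adjusted p = 0.00574). Of 11 translation factors 4 and 3 rose and 0 fell, among them the elongation factor Tufm (1.75 and 1.11) and the recycling factor Mrrf (2.27 and 1.12). Of the mitochondrial tRNA synthetases, a list that includes Gars and Lars2, 3 of 17 rose in wild type, and 2 of 18 rose and 1 fell in mutants, again near the shares of all genes.

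Few genes for making mitochondrial RNA and DNA were tested. Over all genes 46% passed in either direction in wild type and 33.3% in mutants. Lists of 3 to 5 tested genes are too short to set against those shares. Of 9 transcription genes listed only 4 were found by symbol, and 0 of 3 tested passed in wild type and 0 of 4 in mutants. The mitochondrial RNA polymerase Polrmt stood at 0.95 ± 0.60 (adjusted p = 0.205) and -0.68 ± 0.39 (adjusted p = 0.190). Of the replication genes 1 of 4 passed in wild type, the accessory polymerase subunit Polg2 (-2.32 ± 0.74, adjusted p = 0.0176), and 0 of 5 in mutants. Of 9 genes of the mitochondrial unfolded protein response 4 rose and 0 fell in each genotype, with the chaperonin Hspd1 at 1.82 ± 0.25 and 1.48 ± 0.24.

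The second comparison asks whether mitochondrial RNAs differed between GarsC201R/+ and Gars+/+ precipitates with Cre. None of the 15 members passed with edgeR, where 0.331% of all genes passed (41 of 12399). An unadjusted p under 0.05 was found for 4 of 15 members and for 2113 of the 12399 genes. CPM of the genotypes overlapped for all 15. All 15 changes were below 0, as they were with RLE size factors and DESeq2. But 3 of 15 were with library totals only, 8 with limma-voom and 10 to 14 without any 1 of 5 libraries. With fewer samples, 8 were below 0 with the title number as a block and 8 without title number 18405. The messenger median was -0.34 (range -1.44 to -0.05), beside 0.06 for all genes tested.

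The 4 with the smallest p were mt-Rnr2, mt-Nd2, mt-Nd3 and mt-Nd4l. mt-Rnr2 stood at 18009 to 78926 CPM in wild-type Cre and 6909 to 23696 CPM in mutant Cre libraries, with a change of -1.62 ± 0.38 (unadjusted p 0.000773, adjusted p = 0.0863, edgeR). With library totals only it was -0.41, with all genes at a median of 0.79. Only wild-type Cre replicate 2, the lowest of its group, lay within the mutant range. Without that library the change was -1.83 (adjusted p = 0.00959), and mt-Nd3 passed too (-1.59, adjusted p = 0.0455), while the count over all genes went from 41 to 1054.

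mt-Nd2, a core subunit of complex I, stood at 222, 119, 66.6, 88.0 and 173 CPM in wild-type Cre replicates 1 to 5 and at 23.4 to 106 CPM (median 46.8) in mutant Cre libraries. Its change was -1.29 ± 0.38 (adjusted p = 0.141, edgeR). mt-Nd3, also of complex I, stood at 8.33, 2.94, 3.39, 3.93 and 5.46 CPM and at 0.690 to 3.90 CPM (median 1.33), with -1.44 ± 0.44 (adjusted p = 0.150), on only 11 to 124 counts per Cre library. mt-Nd4l changed by -0.66 ± 0.30 (adjusted p = 0.280) and by 0.29 (adjusted p = 0.589) with library totals only. For each of these 3 the upper part of the wild-type group lay above all mutant libraries and the rest within their range.

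The changes closest to 0 were those of the 3 longest messengers and of mt-Nd1, with mt-Nd5 at -0.08 ± 0.32, mt-Co1 at -0.07 ± 0.47, mt-Nd4 at -0.10 ± 0.34 and mt-Nd1 at -0.05 ± 0.34. Across the 13 messengers the change in this contrast had a correlation of 0.59 (Pearson) and 0.73 (Spearman) with length, a description over genes that share libraries and precursor RNAs. Glycine codons, which mt-Tg reads, make up from 0 of 68 codons in mt-Atp8 to 26 of 173 in mt-Nd6 (15.0%), with 46 of 515 in mt-Co1 (8.93%). Their share had a correlation of 0.27 (Pearson) and 0.42 (Spearman) with the same change. For the genotype change without Cre both were of opposite sign, at -0.42 and -0.25 for length and -0.37 and -0.47 for glycine codons.

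Several other quantities moved in the same contrast. The 3 ribosomal RNA-like models stood lower in mutants by amounts close to that of mt-Rnr2, at -1.65 ± 0.48 (Gm15662), -1.59 ± 0.47 (Lars2) and -1.50 ± 0.53 (Gm26924), with adjusted p-values of 0.136, 0.141 and 0.201. The oligodendrocyte marker sum was 550 to 3053 CPM in wild-type and 808 to 7122 CPM in mutant Cre libraries, with 0 of 8 called, 6 of 8 at an unadjusted p under 0.05 and a median of 1.63. Over all genes tested 2113 of 12399 had such a p. Medians of the other lists were 1.15 (astrocyte), 2.91 (microglia), 1.40 (endothelial), 1.76 (erythroid) and -0.40 (motor neuron), with 0 called in each, and Chat was at -0.75 ± 0.28 (adjusted p = 0.220). The part of these in the mitochondrial values was not tested.

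Within title number 20302, 7 of 15 members were lower in mutants (2 libraries against 2, -1.20 to 1.03), and within number 20401, 10 of 15 (2 against 2, -1.31 to 0.43). Nuclear subunits of the 4 complexes passed in 0 of 70 cases, with a median of -0.37, beside -0.34 for the mitochondrial messengers, and of 0.51 beside 0.29 with library totals only. Mitochondrial ribosomal proteins passed in 0 of 77 (19 at an unadjusted p under 0.05, beside 2113 of 12399 genes, median -0.33). In the 9 unfolded protein response genes 1 passed, beside 0.331% of all genes. It was Atf5, a transcription factor of that response, which rose by 1.80 ± 0.34 (adjusted p = 0.0363, edgeR). The median of the 9 was 0.21, beside 0.06 for all genes tested, so the list is not described by Atf5.

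Without Cre 0 of the 15 members passed between genotypes with edgeR, which does not show that they were alike, and 0% of genes passed (0 of 12588, 565 at an unadjusted p under 0.05, and 0 with DESeq2 and with limma-voom). Messenger changes lay between -0.55 (mt-Nd4l) and 0.45 (mt-Atp8), with 8 of 13 below 0, or 4 to 13 of 13 under the alternatives, the most with library totals only and the fewest without wild-type no-Cre replicate 1. mt-Rnr1 and mt-Rnr2 stood at 1.24 ± 0.98 and 1.05 ± 1.06 (adjusted p = 0.961 and 0.968), standard errors about as large as the values. Without mutant no-Cre replicate 5 they were 0.43 and 0.35, and with library totals only 0.31 and 0.14. Within title number 20301, 12 of 15 members were lower in mutants (4 libraries against 2, -0.85 to 0.20).

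**Figure D4:**
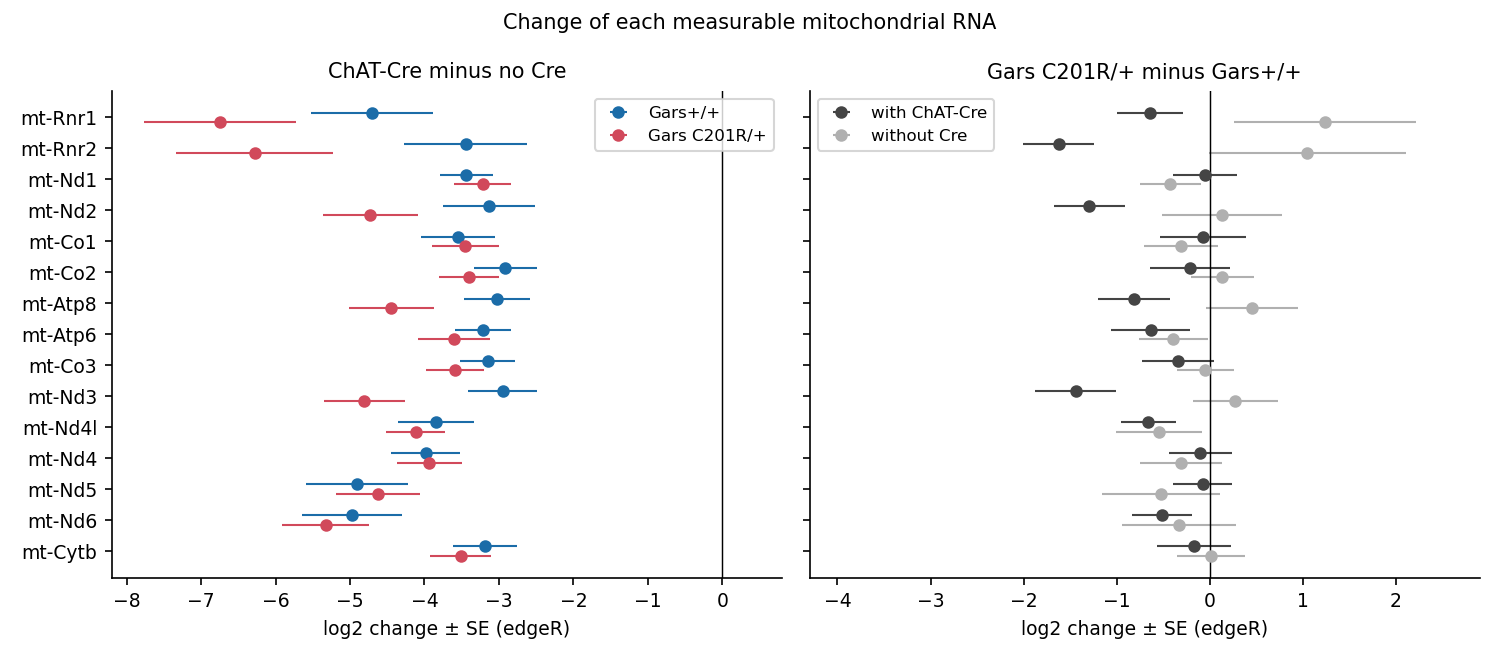
Log2 change with its standard error (edgeR) for each of the 15 measurable mitochondrial RNAs, for ChAT-Cre minus no Cre in each genotype (left) and for GarsC201R/+ minus Gars+/+ with and without Cre (right). All 30 values on the left lie at -2.91 or below, and on the right mt-Rnr2 with Cre is the lowest at -1.62.

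The difference between the genotype effects with and without Cre, which is also the difference between the Cre effects of the genotypes, was fitted with edgeR over all 23 libraries. It passed for 0 of 15 members, where 0.0207% of genes passed (3 of 14468). The value of mt-Rnr2 was -2.64 ± 1.00 (unadjusted p 0.0129, adjusted p = 0.379, edgeR). It was -0.55 with library totals only and -1.38 with the title number as a block (fewer samples). That of mt-Nd3 was -1.68 ± 0.67 (unadjusted p 0.0185, adjusted p = 0.411). These were the only members with an unadjusted p under 0.05, beside 1524 of the 14468 genes. So the larger falls of mt-Rnr1, mt-Rnr2, mt-Nd2 and mt-Nd3 with Cre in mutants than in wild type did not pass as a difference. Such a p does not show that the effects were alike.

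The make-up of the messenger pool was compared per length, as each gene's share of the summed TPM of the 13. mt-Nd5 led in both no-Cre groups, with 20.6% ± 7.06 (SD, n = 6) in wild type and 19.2% ± 7.77 (n = 6) in mutants, and mt-Nd6 followed with 17.6% ± 6.90 and 18.6% ± 4.86. With Cre mt-Nd6 held 10.4% ± 1.81 (n = 5) and 9.24% ± 1.64 (n = 6), and mt-Nd5 held 12.6% ± 4.27 and 15.7% ± 3.16. All 6 mutant Cre libraries had mt-Nd6 below all mutant no-Cre libraries, 7.82% to 12.02% against 14.4% to 28.03%. In wild type 7.44% to 12.2% met 10.7% to 29.8%. This separation in mutants was not particular to mt-Nd6, since mt-Nd1 and mt-Cytb separated as fully in the other direction. mt-Nd1 held 8.99% to 13.03% with Cre against 2.96% to 8.59% without, and mt-Cytb 6.92% to 9.06% against 3.42% to 6.70%. In wild type the ranges of both overlapped. As shares of the same sum, these values are not independent.

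The low end was steadier. mt-Nd3 and mt-Co3 took the last 2 places by mean in all 4 groups, mt-Nd3 with 1.02% to 2.32% and mt-Co3 with 1.86% to 2.54%. mt-Nd3 was last in 6 of 6 mutant Cre, 5 of 6 wild-type no-Cre and 4 of 6 mutant no-Cre libraries, but in 1 of 5 wild-type Cre libraries, where mt-Co3 was last in 4. Neighbours in the middle of the order differed by less than their spread, for example mt-Atp6 (6.38% ± 1.64), mt-Atp8 (6.36% ± 1.42) and mt-Nd4l (6.10% ± 2.02) in wild-type Cre. mt-Nd2 held 14.3% ± 6.32 in wild-type Cre and 7.50% ± 1.50 in mutant Cre libraries.

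With Gm10222 added both to mt-Nd4l and to the summed TPM, mt-Nd4l would hold 9.17% to 11.4% in place of 4.81% to 6.10% (group means). Its rank among the 13 would then lie between 2 and 9 in wild-type Cre and between 3 and 7 in the other groups. Its ranks without the copy were 4 to 11 in wild-type Cre and mutant no-Cre, 9 to 11 in mutant Cre and 5 to 11 in wild-type no-Cre libraries.

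**Figure D5:**
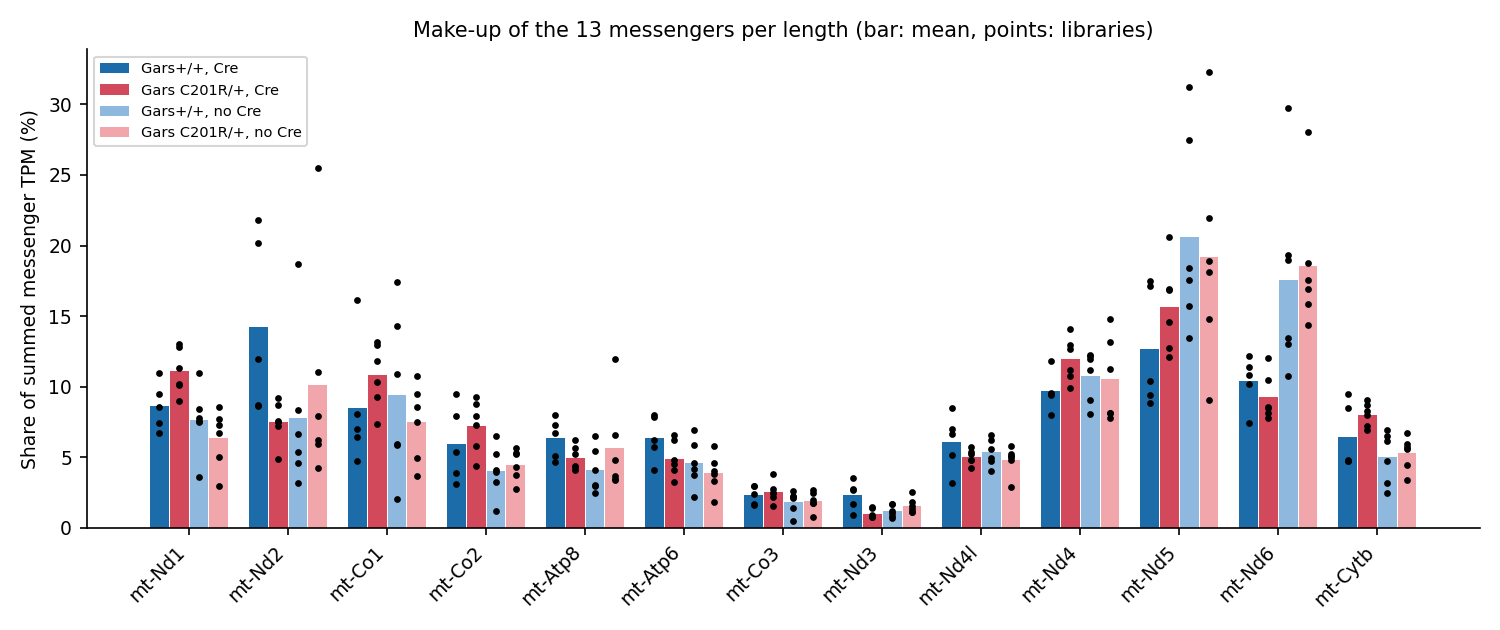
Share of the summed messenger TPM (%) held by each of the 13 messengers in the 4 groups, with bars for means and points for libraries. mt-Nd5 and mt-Nd6 are the highest bars of the no-Cre groups, and mt-Nd3 and mt-Co3 the lowest of all groups.

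Ratios between members were tested in each library. mt-Nd6 held 0.112 to 0.157 counts per count of mt-Nd5 in mutant Cre and 0.145 to 0.419 in mutant no-Cre libraries, and its log2 ratio was lower by -0.77 with Cre (exact two-sided permutation test, p = 0.00649, adjusted p = 0.0260 over 16 tests). The call was lost without title number 18405 (-0.67, adjusted p = 0.109) and without any 1 of 9 of the 12 libraries (adjusted p = 0.0519). In wild type the ratio was 0.131 to 0.309 with Cre and 0.154 to 0.243 without, with a difference of 0.04 (exact permutation p = 0.870), which turned below 0 without any 1 of 4 libraries. Within number 18405 the mutant difference was -0.93. Between genotypes with Cre it was -0.53 (exact permutation p = 0.0606, adjusted p = 0.121).

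mt-Rnr2 and mt-Rnr1, which leave the same precursor and stand in equal number in a ribosome, did not keep 1 ratio. Per length mt-Rnr2 had 1.80 to 10.2 times the TPM of mt-Rnr1 in wild-type Cre, 1.47 to 2.18 in mutant Cre, 1.19 to 3.12 in wild-type no-Cre and 1.22 to 1.61 in mutant no-Cre libraries. The value of 10.2 was that of wild-type Cre replicate 1. The log2 ratio was higher with Cre by 0.44 in mutants (exact two-sided permutation test, p = 0.00433, adjusted p = 0.0231; groups overlapped), a call lost without title number 18405 (0.31, adjusted p = 0.109) and 0.79 within that number. In wild type it was higher by 1.06 (p = 0.0476, adjusted p = 0.109), and between genotypes with Cre it was lower by -0.87 in mutants (exact permutation p = 0.0433, adjusted p = 0.109).

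Ribosomal and messenger RNA were also set against each other. mt-Rnr2 held 51.9 to 1052 counts per count of mt-Co1 in wild-type Cre, 94.1 to 227 in mutant Cre, 47.2 to 886 in wild-type no-Cre and 91.8 to 1718 in mutant no-Cre libraries, so mutant Cre libraries had the narrowest range. The log2 ratio differed by -2.01 between mutant Cre and no-Cre libraries (exact two-sided permutation test, p = 0.0368, adjusted p = 0.109) and by -1.51 between genotypes with Cre (p = 0.0693, adjusted p = 0.123). Within title number 18405, the only one with both kinds of mutant library, the first was 1.02, of opposite sign (2 libraries against 1). The first passed without mutant no-Cre replicate 2, the no-Cre library of that number (-2.51, adjusted p = 0.0277), and the second without wild-type Cre replicate 2 (-2.21, adjusted p = 0.0305). In wild type the Cre difference was 0.46 (exact permutation p = 0.697), and it turned to -0.038 without wild-type no-Cre replicate 5.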

How the data were processed

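Spinal cord RiboTag precipitates were sequenced as 23 libraries. The authors deposited, per gene and library, RSEM expected counts, TPM, FPKM, gene length and effective length. Bowtie2 2.2.0 and RSEM 1.2.12 are named per the submitters' processing notes; build, annotation, kit and strandedness were not given in the sources used here. The labels do not say that each library is a separate animal, so p-values measure only the spread between these libraries. Per the labels' protocols the homogenate was sonicated and cleared by centrifugation before precipitation. No per-sample column belonged to a sample outside the series (0 columns).

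The deposited expected counts were rounded and tested with edgeR 4.0.16 in R 4.3.3 (quasi-likelihood test, TMM scaling, filterByExpr with a minimum count of 10 and total of 15), fitted on the libraries of each comparison, with Benjamini-Hochberg adjustment over all genes tested and a threshold of 0.05. The difference of genotype effects used all 23 libraries. Printed CPM use 1 TMM scale over all libraries. The authors' TPM served comparisons between genes, and their FPKM was not used. Ratios of counts (each plus 1) were compared by two-sided exact permutation tests, adjusted over 16. Total counts were 9031654 to 19671869 per library, and counts remaining without ribosomal RNA and ribosomal RNA-like models were 0.594 M to 6.24 M. Replicates differed beyond counting noise in all 55 pairs (lowest chi-square per degree of freedom 8.53), so none was merged.

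Nuclear copies were found with BLAST 2.17.0 (minimum identity 80%) in GENCODE M21 on GRCm38. Alternatives were RLE size factors, library totals only, scaling without ribosomal RNA, DESeq2 1.42.0, limma-voom (limma 3.58.1) with quality weights, other filters, 1 fit over all libraries, a title number block, omission of title number 18405 and of each library. The block kept only title numbers that held more than 1 of the groups compared, so its changes mix blocking with the loss of libraries. Every measurable member was described. Other genes named are Chat, Gars, Rpl22 and Cox4i1 as checks and, from each list, at most 3 with the smallest p in the comparison under discussion; Gm10222 was named after its counts were seen. The members, the lists and the gene pairs of the ratios were chosen with earlier results of these data known. The p-values of the ratios do not account for that choice. The fits were tested on simulated data.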

Additional observations from a re-analysis of the deposited data

Results flagged for a closer look

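Of 88 sets of values tested, each 1 quantity in 1 group, 13 had a library far from the others by Dixon's criterion. Its chance rate of about 1 in 20 holds for independent sets of normally spread values. These sets share libraries, so 13 cannot be read as an excess. Their causes were not tested.

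Wild-type no-Cre replicate 1 stood apart in 4 complex I messengers. It had 430.3 CPM of mt-Nd4l (next library 117), 5242 of mt-Nd4 (next 2356), 24592 of mt-Nd5 (next 6249) and 5150 of mt-Nd6 (next 962). These are successive messenger genes on the mitochondrial genome, with transfer RNA genes between mt-Nd4 and mt-Nd5.

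In mutant no-Cre libraries, replicate 5 had 1475120 CPM of mt-Rnr1 (next 574788) and 14415 of mt-Nd5 (next 4523), and its TMM factor was 0.125. Replicate 4 had 4661 CPM of mt-Nd2 (next 1001) and 169 of mt-Atp8 (next 59.3). Wild-type no-Cre replicate 4 had 556 CPM of mt-Co2 (next 299).

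Wild-type Cre replicate 2 had 347 CPM of mt-Co1 (next 111), 0.356% of its counts in messengers (next 0.0988%) and a log2 ratio of mt-Co1 to Cox4i1 of 1.17 (next -1.13). Wild-type Cre replicate 3 was low in mt-Nd6, at 26.6 CPM (next 42.6).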

How the results depend on the processing

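No paired analysis was possible because the replicate numbers follow accession order and pair no libraries. All 299 alternative values of single members for Cre in wild type, and all 315 in mutants, kept direction and call, though the size of some moved by over 1.5 times without 1 library, as given with them. DESeq2 gave mt-Nd6 in wild type no adjusted p. Between genotypes with Cre, where edgeR called 0 members, DESeq2 called 3 (mt-Rnr2 -1.65, adjusted p = 0.000424; mt-Nd2 -1.32, 0.0230; mt-Nd3 -1.48, 0.0345) and limma-voom 1 (mt-Rnr2 -1.45, 0.00993), and leaving out 1 library gave 0 to 2, the 2 without wild-type Cre replicate 2. With library totals only mt-Nd4l was at 0.29. Without title number 18405 (fewer samples) the mutant Cre ratios were 0.31 (mt-Rnr2 to mt-Rnr1), -0.67 (mt-Nd6 to mt-Nd5) and -3.70 (mt-Co1 to Cox4i1), none passing. For mt-Co1 to Cox4i1 the raw p was the smallest that the libraries left can give. Leaving out 1 library, mt-Rnr2 to mt-Co1 ranged from -0.038 to 1.16 (Cre, wild type), -2.51 to -1.67 (Cre, mutants) and -2.21 to -1.13 (genotype, Cre), and mt-Nd6 to mt-Nd5 from -0.14 to 0.17 (wild type) and -0.90 to -0.59 (mutants). The causes were not tested.

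Calls over all genes went from 5738 to 906 (library totals) and 3701 (filter at 5 CPM) for Cre in wild type and from 4247 to 6990 (limma-voom) and 8175 (no filter) in mutants. Between genotypes with Cre 41 became 17 (library totals), 413 (DESeq2), 868 (limma-voom), 89 (no filter), 11 (all libraries in 1 fit), 19 (title number block) and 10 to 1054 (1 library left out), without Cre 0 became 31 (no filter), and for the interaction 3 became 1, 42, 169 and 9 (library totals, DESeq2, limma-voom, no filter) and 1 to 8. Library totals moved the median of all genes to 1.13 (Cre, mutants), 0.79 and -0.35 (genotype with and without Cre) and 1.18 (interaction). The title number block could not be fitted for Cre in mutants or for genotype without Cre, and elsewhere it used fewer samples.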
